A study of Mus musculus with 2 samples.

Results

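A set of 10 genes known for the identity of deep-layer cortical neurons was followed in 2 areas of the embryonic mouse brain, the subventricular zone (SVZ) and the cortex. They were chosen by name as Bcl11b, Bcl11a, Fezf2, Tle4, Foxp2, Foxp1, Ldb2, Lmo3, Crym and Zfpm2, and all 10 were found by symbol among the 24411 genes listed for both libraries. Laser capture microdissection (LCM), which cuts chosen areas out of a stained section with a laser, was combined with RNA-seq of whole tissue pieces from fresh-frozen heads at embryonic day 16.5. One group was tissue from the SVZ, a germinal layer near the ventricle, and the other was tissue from the cortex, where newborn neurons settle. Neither strain, genotype nor treatment is named in the labels, and the study's methods mention no genetic change. Each area gave 1 library, so no difference below has a replicate check and no test between areas was possible. The number of animals and sections behind a library is not stated in the labels or methods. Which depth of the cortex was cut is not stated either, and layers were not sampled apart, so a level cannot be placed in a layer.

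Projection neurons of layers 5 and 6 are born before those of the upper layers, and many of them send axons out of the cortex. Layer 5 subcerebral neurons reach the brainstem and spinal cord, and layer 6 corticothalamic neurons reach the thalamus. Fezf2 is the zinc finger factor that sets the subcerebral program, and Bcl11b (Ctip2) acts downstream of it, in part on axon outgrowth. Several of these genes also work outside the deep layers, since Fezf2 is expressed in cortical progenitors and Bcl11b, Foxp1 and Foxp2 are expressed in striatal neurons.

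Below, SVZ and cortex stand for their single libraries. Reads assigned to genes numbered 51435667 for SVZ and 22050693 for cortex, which made the SVZ library 2.33 times as deep. Levels are given as CPM (reads of a gene per 1000000 gene-assigned reads of its library), in which 1 read was worth 0.0194 CPM in SVZ and 0.0454 CPM in cortex. Of the members, 9 had at least 292 reads in each library, and Crym alone rested on fewer. The areas were checked with markers of each. All 11 progenitor markers were at least 4-fold higher in SVZ, with a median log2 ratio of SVZ to cortex CPM of 5.58, and all 10 pan-neuronal markers were higher in cortex, with a median of -2.52. The neuronal markers were not absent from the SVZ library, where the 10 summed to 2188 CPM against 8075 CPM in cortex.

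To show sequence around annotated start sites of these genes, RefSeq start-site windows were searched for short motifs. Each window holds 300 bases around a start site on GRCm38.p6, most of them upstream, and 9 windows were found for 6 of the 10 members (Bcl11a, Bcl11b, Fezf2, Foxp1, Lmo3 and Tle4). Against the GENCODE M21 gene spans given below, 6 of the 9 windows lie wholly inside the gene, at start sites downstream of the outermost one, and 3 reach beyond its 5′ end (those of Bcl11b and Lmo3 and 1 of Tle4). The 3 printed here belong to the BCL11 pair, whose members differed in their ratio between areas, and to Fezf2, the member with the highest level per length in cortex. Capitals mark TCACAC or its reverse complement GTGTGA, the core of the site bound by T-box factors such as Tbr1. Each sequence is written 5′ to 3′ on the strand of its gene. The Bcl11a window begins 2.39 kb and the Fezf2 window 2.07 kb downstream of the 5′ end of the gene span.
Bcl11a (chr11:24080445-24080744, plus strand): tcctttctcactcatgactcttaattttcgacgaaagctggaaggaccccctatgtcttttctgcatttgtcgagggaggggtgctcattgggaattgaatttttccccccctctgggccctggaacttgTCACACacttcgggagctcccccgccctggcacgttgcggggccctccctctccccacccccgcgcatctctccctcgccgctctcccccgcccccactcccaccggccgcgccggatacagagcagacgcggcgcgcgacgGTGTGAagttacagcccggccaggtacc
Bcl11b (chr12:108003365-108003664, minus strand): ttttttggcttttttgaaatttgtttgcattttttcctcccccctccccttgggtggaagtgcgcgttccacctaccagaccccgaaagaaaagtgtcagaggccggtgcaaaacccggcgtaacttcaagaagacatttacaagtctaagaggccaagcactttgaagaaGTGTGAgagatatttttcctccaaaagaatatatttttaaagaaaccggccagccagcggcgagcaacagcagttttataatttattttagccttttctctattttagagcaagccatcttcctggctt
Fezf2 (chr14:12345816-12346115, minus strand): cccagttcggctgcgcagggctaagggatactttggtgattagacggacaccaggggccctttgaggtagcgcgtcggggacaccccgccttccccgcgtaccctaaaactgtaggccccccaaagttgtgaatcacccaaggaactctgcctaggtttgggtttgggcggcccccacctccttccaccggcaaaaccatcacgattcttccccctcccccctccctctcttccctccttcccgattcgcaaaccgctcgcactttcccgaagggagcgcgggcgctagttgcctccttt
The T-box core was found 2 times in the Bcl11a window, 1 time in the Bcl11b window and 0 times in the Fezf2 window. Across the members it occurred in 4 of 9 windows, belonging to Bcl11a, Bcl11b, Foxp1 and Lmo3, and in 14.5% of all 32851 RefSeq windows. The SOX core ACAAAG (or CTTTGT), also searched on both strands, lay in 3 of the 9 member windows and in 18.7% of all windows. The GC box GGGCGG (or CCGCCC) lay in 6 of 9 against 35.7% of all windows. The E-box CANNTG, whose reverse complement is itself, lay in 6 of 9 against 72.3%. Each motif was counted apart from the others, whether or not matches overlapped. GC content was 63.0% for the Bcl11a window, 43.0% for Bcl11b and 61.3% for Fezf2, beside a median of 52.7% over all windows. A letter match is a description of the window only.

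Every one of the 10 genes had the higher CPM in cortex, a side taken by 45.1% of the 12738 genes compared, which are those whose CPM averaged at least 1 between the libraries. The cortex level was at least 2-fold higher for 8 of the 10, where 15.6% of all such genes passed that fold, and at least 4-fold higher for 7 of the 10, against 7.01% of all genes. No member was on the side that is 2-fold higher in SVZ, which held 20.0% of all genes. Together the 10 genes took 0.0682% of the gene-assigned reads in SVZ and 0.233% in cortex, a 3.41-fold difference. Their median log2 ratio was -2.35, beside a median of 0.11 over all 12738 genes, whose quartiles were -0.56 and 0.76. Fewer cells of a type and less RNA per cell cannot be told apart in such bulk samples.

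**Figure D1:**
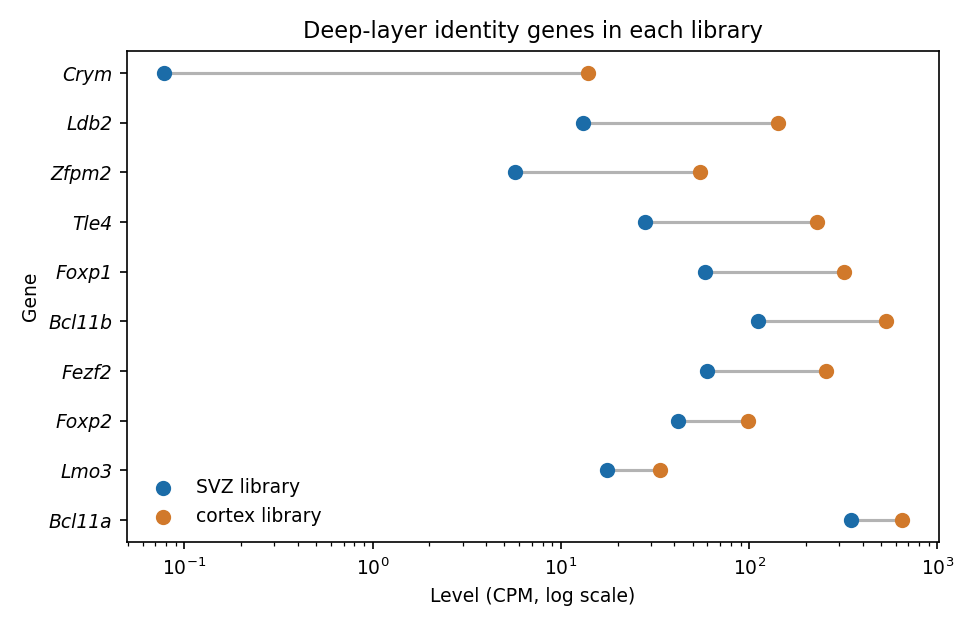
Level of each of the 10 genes in CPM (horizontal axis, log scale) in the SVZ (blue) and cortex (orange) libraries, 1 library each, joined by a grey line. The cortex point lies to the right for every gene, and the gap is widest for Crym (0.0778 and 13.9 CPM) and narrowest for Bcl11a (346 and 647 CPM).

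The subcerebral genes of layer 5 were described first. Fezf2 (GRCm38 chromosome 14, 12342094 to 12348189, minus strand) had 3069 reads or 59.7 CPM in SVZ and 5676 reads or 257 CPM in cortex. It was 4.31-fold higher in cortex, with a counting interval of 4.13 to 4.51. The interval is the exact (Clopper-Pearson) 95% interval of the read split between the libraries, covers counting error only, and leaves out variation between animals and dissections. It was well above the limit of detection in the germinal layer as well. Bcl11b (chromosome 12, 107910403 to 108003602, minus strand), the zinc finger repressor of corticospinal neurons, had 111 CPM in SVZ and 533 CPM in cortex, 4.79-fold more (4.64 to 4.95). The 4-fold line lay outside the interval of both genes.

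Ldb2 (chromosome 5, 44472132 to 44799680, minus strand), which encodes a LIM-domain-binding cofactor and is a marker of corticospinal neurons, had 673 reads or 13.1 CPM in SVZ and 3139 reads or 142 CPM in cortex. Its 10.9-fold difference (10.0 to 11.8) was the largest of the 9 well-read members. Crym (chromosome 7, 120186380 to 120202111, minus strand), the thyroid-hormone-binding mu-crystallin of subcerebral neurons, was close to the limit of detection in SVZ, with 4 reads or 0.0778 CPM, against 307 reads or 13.9 CPM in cortex. The ratio was 179-fold in favor of cortex, but its interval ran from 69.2 to 661, and the log2 ratio of -7.48 became -3.79 once 1 CPM was added to both levels. All 4 layer 5 genes were past 4-fold.

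Among the layer 6 genes, Tle4 and Zfpm2 lay past 4-fold and Foxp2 did not. Tle4 (chromosome 19, 14448150 to 14598051, minus strand), a Groucho-type corepressor found in corticothalamic neurons, had 1433 reads or 27.9 CPM in SVZ and 5032 reads or 228 CPM in cortex. It was 8.19-fold higher in cortex (7.72 to 8.69). Zfpm2 (Fog2; chromosome 15, 40655035 to 41104592, plus strand), a cofactor of GATA-type factors expressed in corticothalamic neurons, had 292 reads or 5.68 CPM and 1209 reads or 54.8 CPM, a 9.66-fold difference (8.49 to 11.0). Foxp2 (chromosome 6, 14901349 to 15441977, plus strand), a forkhead repressor of layer 6, had nearly equal reads, 2158 and 2161, which at these depths are 42.0 and 98.0 CPM and a 2.34-fold difference (2.20 to 2.48). Its ratio was closer to equality than those of the other layer 6 genes by more than counting error.

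The remaining genes mark deep layers together with other neurons. Foxp1 (chromosome 6, 98925338 to 99522721, minus strand), a forkhead factor of layers 3 to 6, had 58.4 CPM in SVZ and 318 CPM in cortex, 5.45-fold more (5.22 to 5.69). Bcl11a (Ctip1; chromosome 11, 24078056 to 24174123, plus strand), a zinc finger factor of many cortical neurons, was the most read member, with 17812 reads or 346 CPM and 14276 reads or 647 CPM. Its difference of 1.87-fold (1.83 to 1.91) was the smallest of the 10. Lmo3 (chromosome 6, 138362918 to 138581968, minus strand), a LIM-only protein that bridges transcription factors, had 17.5 and 33.7 CPM and differed by 1.92-fold (1.74 to 2.12).

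In order of their ratios from the most cortical, the genes ran Crym, Ldb2, Zfpm2, Tle4, Foxp1, Bcl11b, Fezf2, Foxp2, Lmo3 and Bcl11a. Of the 9 pairs of neighbors in this order, 3 had counting intervals that overlapped, namely Ldb2 with Zfpm2, Zfpm2 with Tle4, and Lmo3 with Bcl11a. The genes least tilted toward cortex still lay low among all genes, since 17.2% of genes had a lower SVZ to cortex ratio than Bcl11a and 12.8% a lower one than Foxp2. The corresponding share was 2.81% for Ldb2 and 0.196% for Crym.

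**Figure D2:**
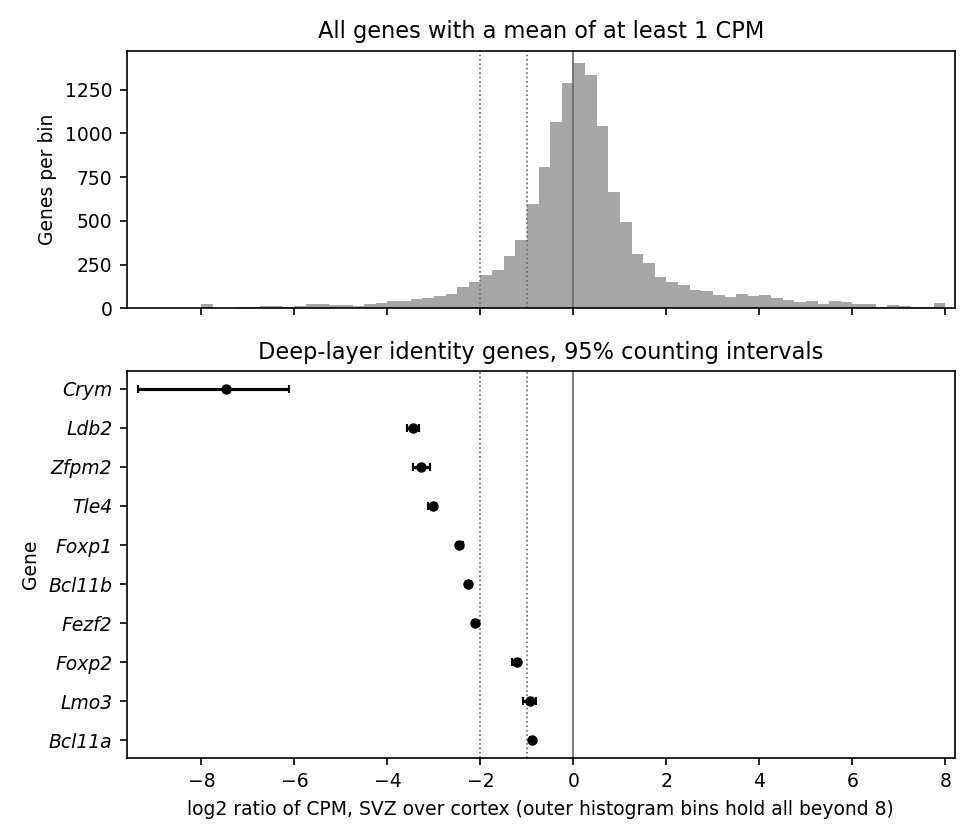
Upper panel, number of genes (vertical axis) by log2 ratio of SVZ to cortex CPM (horizontal axis) for the 12738 genes compared. Lower panel, the same ratio for the 10 genes with 95% counting intervals as bars; dotted lines mark 2-fold and 4-fold higher cortex levels, and 7 genes lie left of the 4-fold line.

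Levels were set between genes only after division by exon length (reads per kilobase of exon per 1000000 reads, with the merged exons of GENCODE M21). On this scale of level, the cortex library was led by Fezf2 at 84.5, Bcl11b at 65.7 and Bcl11a at 49.1, followed by Ldb2 at 42.7, Tle4 at 40.0 and Foxp1 at 23.1. Lmo3, Foxp2, Zfpm2 and Crym lay between 4.11 and 6.57. In the SVZ library the first place went to Bcl11a at 26.3, ahead of Fezf2 at 19.6 and Bcl11b at 13.7, and the other 7 genes were at or below 4.89. The order of these genes therefore differed between the libraries. The lengths come from another annotation than the counts and all transcripts are merged, so they understate genes that use short transcripts.

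Position and structure of the genes were compared with the rest. All 10 are annotated as protein coding. They range from 6.10 kb (Fezf2) to 597 kb (Foxp1) in span, and 6 of them span at least 100 kb. Long genes leaned to the cortex library as a class, with a median log2 ratio of -0.20 over the 1942 genes of at least 100 kb. Of these, 28.8% were at least 2-fold and 15.8% at least 4-fold higher in cortex. Among the 6 long members, 5 passed 2-fold and 4 passed 4-fold. The part of gene span in the members' ratios was not tested.

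The members belong to families whose other genes were also read, so the make-up of each family was compared within each library, a measure that does not depend on library totals. Ldb2 made up 44.1% of LDB reads in SVZ (interval 41.6 to 46.7) and 89.6% in cortex (88.5 to 90.6). Ldb1, the broadly expressed partner of LIM proteins, stood at 16.6 CPM in both libraries, with a log2 ratio of -0.00 (-0.18 to 0.18). In the TLE family of corepressors, Tle4 was 13.6% of reads in SVZ (12.9 to 14.3) and 57.5% in cortex (56.5 to 58.5). Tle1 differed the other way, with 27.1% and 7.32%, and its CPM was 55.6 in SVZ and 29.1 in cortex. The short family member Tle5 (listed as Aes) was 33.8% and 21.9%, and Tle3 was 24.5% and 11.5%.

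In the BCL11 pair, Bcl11a held 75.7% of reads in SVZ (75.1 to 76.2) and 54.8% in cortex (54.2 to 55.5), with Bcl11b as the rest. Per kilobase of exon Bcl11a was 65.7% of the pair in SVZ and 42.8% in cortex, so that on this scale the more abundant of the pair differed between areas. In the FOXP family, Foxp1 was 55.0% of reads in SVZ (53.7 to 56.3) and 74.6% in cortex (73.7 to 75.5). Foxp2 went from 39.5% to 23.0% and Foxp4 from 5.46% to 2.40%. Among LIM-only genes Lmo3 was 7.20% of reads in SVZ (6.76 to 7.67) and 19.5% in cortex (18.3 to 20.8). Lmo1 led that family in both, with 69.4% and 49.6%. Zfpm2 made up 97.7% and 98.4% of ZFPM reads, and Fezf1 was listed at 0 reads in both libraries, which allows up to 0.0583 CPM in SVZ and 0.136 CPM in cortex. Of the 13 relatives, 10 averaged at least 1 CPM, and these were divided, with 5 higher in each library by any size and a median log2 ratio of 0.04. Ldb1, counted for cortex, and Lmo2 and Lmo4, counted for SVZ, had counting intervals that included equality.

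**Figure D3:**
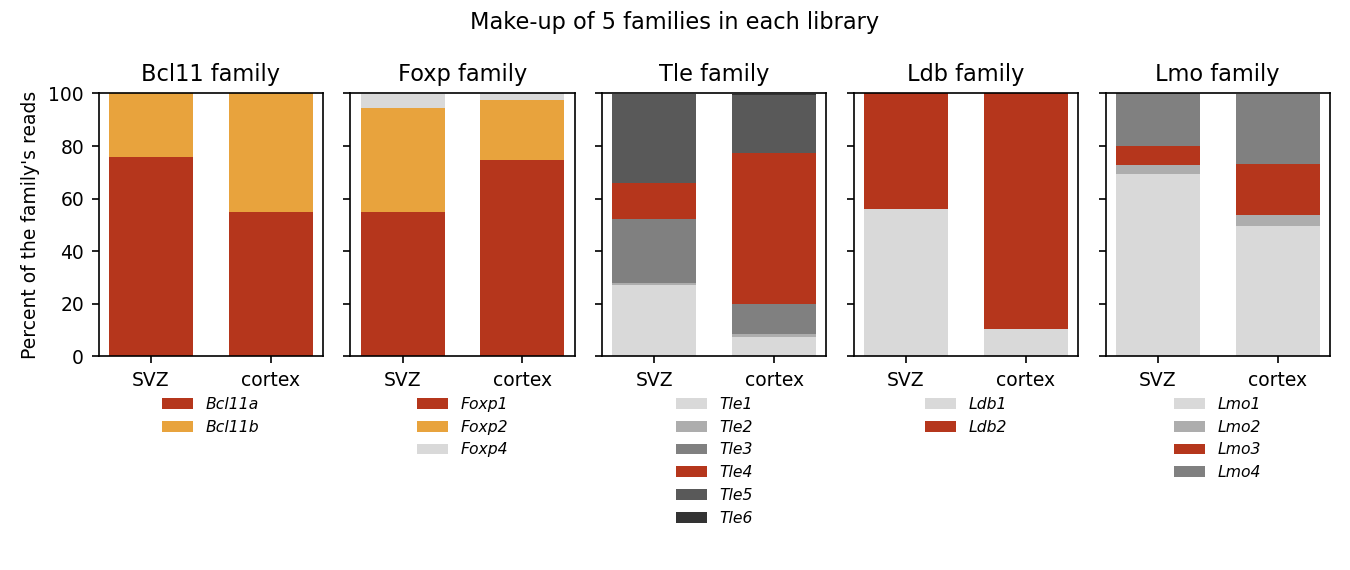
Share of each gene in the reads of its family (vertical axis, percent) in the SVZ and cortex libraries, for the BCL11, FOXP, TLE, LDB and LMO families. Red and orange segments are deep-layer identity genes and grey segments their relatives; Tle4 is 13.6% of family reads in SVZ and 57.5% in cortex, and Ldb2 is 44.1% and 89.6%.

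Other genes of the deep-layer program were then examined. Of 10 regulators and partners of deep-layer identity, 7 were higher in cortex, 3 of them past 4-fold, and 2 were at least 2-fold higher in SVZ. Past 4-fold were Tbr1, the T-box factor of layer 6, with 47.3 and 219 CPM in the SVZ and cortex libraries, Sox5, with 302 and 1337 CPM, and Bhlhe22, with 41.4 and 167 CPM. Sox11, a SOX factor that activates Fezf2, stood at 5120 and 5155 CPM, a log2 ratio of -0.01 (-0.02 to 0.00), a difference far smaller than that of Fezf2. On the SVZ side, Nr2f1, an area-patterning nuclear receptor, had 126 and 42.5 CPM, and Etv1, an ETS factor of layer 5, had 38.0 and 10.0 CPM. Otx1 also leaned to the SVZ library with 22.3 and 12.8 CPM. The list median was a log2 ratio of -0.80.

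All 5 corticothalamic genes were at least 2-fold higher in cortex and 4 were past 4-fold, with a median log2 ratio of -3.52. The remaining gene, Sulf1, had 97 reads in SVZ and 85 in cortex. Its 2.04-fold difference had a counting interval of 1.51 to 2.76, which reaches below 2-fold. Ntsr1, a neurotensin receptor of layer 6, had 0 reads in SVZ and 835 in cortex. Hs3st4, a heparan sulfate sulfotransferase, had 3 and 2803 reads. Syt6, a synaptotagmin, had 7.97 and 91.4 CPM and a log2 ratio of -3.52, the median of this list. In the summed strand-specific columns its ratio and the list median were -2.46, and GENCODE M21 places exons of Atg4a-ps on the strand opposite Syt6. The 9 genes named for subcerebral neurons were divided, in contrast to the 4 layer 5 members. Of the 8 that averaged at least 1 CPM, 4 were higher in each library, and the median log2 ratio was 0.05. S100a10 had 4.94 CPM in SVZ and 57.0 CPM in cortex, and Cdh13, an atypical cadherin, had 5.52 and 482 CPM. Pcp4, a calmodulin-binding peptide, went the other way with 54.6 and 19.8 CPM, as did Igfbp4 with 26.4 and 10.9 CPM and Ntng1 with 10.7 and 3.13 CPM. Cdh22 had 5 and 0 reads.

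To see how the members compared with neurons at large, their ratios were set beside the pan-neuronal list, whose 10 genes had a median log2 ratio of -2.52. The members' median of -2.35 lay 0.17 above it. Relative to that median, 4 members were tilted further to cortex, namely Crym by -4.96, Ldb2 by -0.92, Zfpm2 by -0.75 and Tle4 by -0.51. The other 6 were tilted less, from Foxp1 at 0.07, Bcl11b at 0.26 and Fezf2 at 0.41 to Foxp2 at 1.30, Lmo3 at 1.58 and Bcl11a at 1.62. The pan-neuronal genes themselves spanned a wide range, from Rbfox3 (74.2 and 92.5 CPM) to Nefl (0 reads and 12.8 CPM). A cortical lean of the size shown by most members was thus also seen in markers that neurons share. Upper-layer genes were divided, with 6 of 9 higher in SVZ and a median of 0.87. The 3 higher in cortex were Rorb (37.2 CPM in SVZ and 326 CPM in cortex), Inhba (1.40 and 63.4 CPM) and Plxnd1 (3.29 and 6.53 CPM). Which cells gave the values of this list was not tested.

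**Figure D4:**
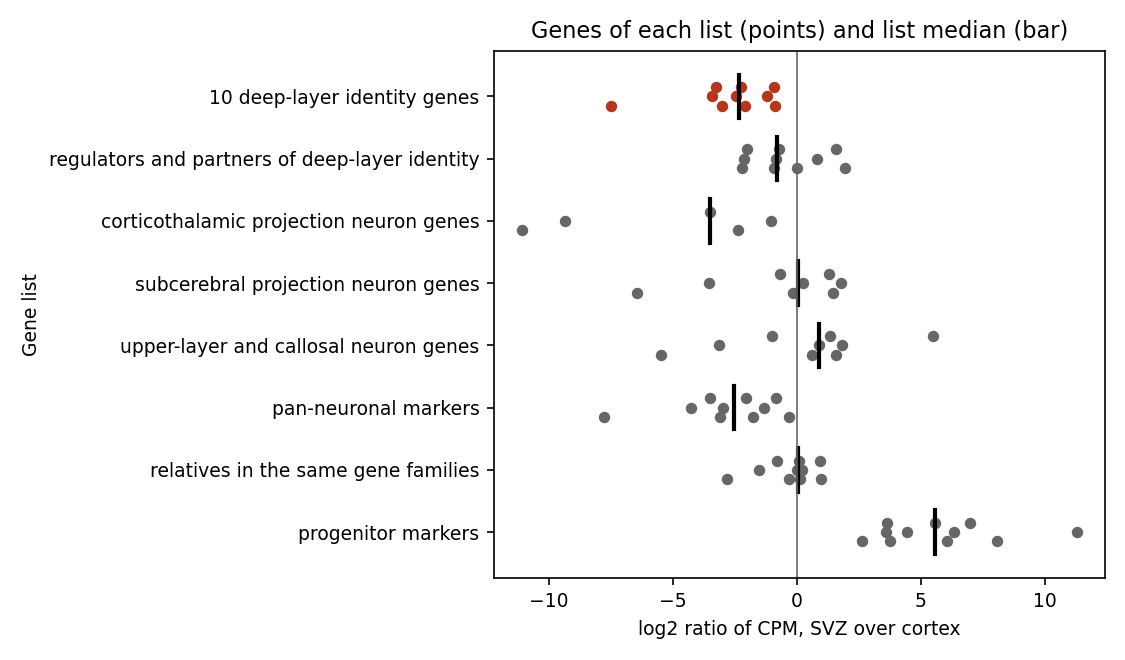
Log2 ratio of SVZ to cortex CPM (horizontal axis) for every gene averaging at least 1 CPM in 8 gene lists (vertical axis), with the list median as a black bar. The 10 deep-layer identity genes (red, median -2.35) lie beside the pan-neuronal markers (-2.52) and apart from the progenitor markers (5.58). Ntsr1 and Nefl had 0 SVZ reads and are drawn at the floor of 3 reads.

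Since Bcl11b, Foxp1 and Foxp2 also mark striatal neurons, markers of that type were counted. Of 14 striatal markers, 7 averaged at least 1 CPM, of which 3 were higher in cortex and 4 in SVZ. All 14 together summed to 21.5 CPM in SVZ and 133 CPM in cortex. Of this, Ppp1r1b, which layer 6 neurons also express, gave 2.29 CPM in SVZ and 100 CPM in cortex. Drd1, a dopamine receptor that corticothalamic neurons also express, had 0 and 380 reads. Drd2 had 0 reads in both libraries, and Isl1, Six3, Ikzf1, Tac1 and Zfp503 had 0 reads in cortex and at most 43 in SVZ. Striatal markers were still read in both libraries. Apart from Ppp1r1b and Drd1, those averaging at least 1 CPM lay between 2.06 and 4.55 CPM in SVZ and between 0.635 and 6.98 CPM in cortex. Ganglionic eminence progenitor markers summed to 154 CPM in SVZ and 39.1 CPM in cortex, and Nkx2-1 and Gsx1 had 0 reads in both. Interneuron markers summed to 133 and 503 CPM, of which Npy gave 14.3 and 379 CPM. Of the 7 interneuron markers that averaged at least 1 CPM, 4 were higher in SVZ and 3 in cortex, with a median log2 ratio of 0.38. Among non-neural lists, microglial markers summed to 35.6 and 4.81 CPM, endothelial markers to 64.4 and 55.6 CPM, erythroid markers to 20.4 and 10.9 CPM, and choroid plexus markers to 243 and 0.907 CPM, with the SVZ library first. The part of these cell types in the members' values was not tested.

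Finally, the counts were examined for reads shared with genes on the other strand. For all 10 members the sum of the deposited strand-specific columns equaled the unstranded count in both libraries, so no member read had been set aside as ambiguous with a gene on the opposite strand. The annotation places exons of 4930538E20Rik opposite Bcl11a, and exons of Gm20696 and Gm49348 on the same strand as Foxp1. Reads of Foxp1 and of these same-strand models cannot be told apart where they overlap.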

How the data were processed

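LCM pieces of SVZ and cortex were profiled as 1 RNA-seq library each. The low-input library kit named in the study's methods does not mark strand, and 49.6% of SVZ and 49.7% of cortex strand-specific reads fell on the first strand. The authors trimmed adapters with cutadapt 4.1 and mapped read 1 to mm10 with STAR 2.7.9a, which counted reads per gene. The version of the gene annotation and the handling of duplicates were not given in the sources used here. The deposited counts are whole reads, unnormalized. A second deposited table repeats these counts with the authors' CPM and fold changes and was not used.

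Here, unstranded counts were divided by the total of gene rows. STAR's 4 summary lines, which held 41.0% of SVZ reads and 40.9% of cortex reads, were left out. Ratios are SVZ over cortex CPM without a pseudocount, with exact 95% intervals. A count of 0 was set at 3 reads. With 1 library per area no test was run. Folds of 2 and 4 were counted among genes averaging at least 1 CPM. All 10 members and any gene of the lists could be named, except 1 striatal marker whose values are not reported here. Members and lists were chosen with earlier results of these data known. Positions and exon lengths came from GENCODE M21 (GRCm38), the build of mm10, and start-site windows from RefSeq. Tle5 and Diaph3 were matched by older symbols (Aes and Diap3). Alternatives were edgeR 4.0.16 scaling by TMM or by upper quartile, size factors from DESeq2 1.42.0, totals that omit each library's 10 top genes, stranded sums, a pseudocount of 1 CPM and other filters. The ratio procedure was tested on simulated data. Scripts ran in R 4.3.3 and in Python 3.11.15 with pandas 2.3.3, scipy 1.17.1, numpy 2.4.6 and matplotlib 3.10.9.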

Additional observations from a re-analysis of the deposited data

Results flagged for a closer look

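Foxp3, the FOXP relative of regulatory T cells, was listed at 0 in both unstranded columns but had 541 reads in SVZ and 242 in cortex when the strand-specific columns were summed, above the 3 reads that a count of 0 allows. GENCODE M21 places exons of Ccdc22, Ppp1r3f and Gm36995 on the strand opposite Foxp3. Which gene these reads came from was not tested, and they were left out of the FOXP family shares.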

How the results depend on the processing

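No paired analysis was possible because SVZ and cortex were each sequenced as 1 library, and no replicate could be left out. Every member stayed higher in the cortex library under the 3 other scalings, the trimmed totals, the stranded sums and the pseudocount. Of 60 member ratios recomputed, 39 stayed within their counting interval, 21 moved beyond it and 0 changed sign. The number past 4-fold was 7 under each of these and with the whole interval past the fold. The number past 2-fold was 8, but 9 under TMM scaling and DESeq2 size factors and 10 under upper-quartile scaling, while the share of all genes past that fold went from 15.6% to 17.1%, 17.2% and 17.3%. Bcl11a and Lmo3 lie near that fold. The members' median moved from -2.35 to -2.45 under TMM, DESeq2 and upper-quartile scaling, which shifted the median of all genes by -0.093, -0.093 and -0.099. The pseudocount moved Crym to -3.79 and Zfpm2 to -3.06. Taking the pan-neuronal median in place of 0, an alternative chosen after seeing the data, turned the sign of the median (0.17) and of Fezf2 (0.41), Bcl11b (0.26), Foxp2 (1.30), Foxp1 (0.07), Bcl11a (1.62) and Lmo3 (1.58). The share of all genes past 2-fold toward cortex was 17.3% with no filter and 12.3% among genes averaging 10 CPM or more, which 9 members reached, and the share past 4-fold was 8.82% and 4.70%. Restriction to long genes and the stranded sums for Syt6 and its list were also chosen after seeing the data. Depth limits Crym alone among the members.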
